A study of Mus musculus with 7 samples.

Results

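Laminins are heterotrimers of an alpha, a beta and a gamma chain that assemble into a sheet on the cell surface, and nidogens link that sheet to the type IV collagen network of the basement membrane. In the brain, basement membranes surround blood vessels and line the pial surface, and endothelial cells, mural cells, fibroblasts and astrocytes are known to make their laminins. The genes described here are Lama1, Lama2, Lama3, Lama4, Lama5, Lamb1, Lamb2, Lamc1, Nid1 and Nid2. These 10 genes, of 46333 in the series, were picked on the high Lama4 and Nid2 in cre+ libraries, so their differences between genotypes are a description and carry no test.

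Expression was measured by poly(A) RNA sequencing of neurons isolated from whole brain of adult female mice. There were 3 cre+ libraries, from il4ra fl/fl mice carrying Syn cre, and 4 cre- libraries, from il4ra fl/fl littermates without it. Both genotypes thus carried the floxed allele of the interleukin-4 receptor alpha chain, on a C57Bl/6 background. Syn cre is a recombinase driven in neurons by the promoter of synapsin 1, and is not designed to act in vessel cells or fibroblasts. Neurons were enriched by magnetic removal of other cells, and the antibodies named for this step were directed at microglia, oligodendrocytes and astrocytes, not at endothelial or mural cells.

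Total counts ran from 68213223 to 94376841 per library. Il4ra itself overlapped between genotypes (24.4 to 29.5 CPM in cre+, 20.03 to 29.6 CPM in cre-; CPM, counts per 1000000, scaled with TMM factors), and a count over the whole gene does not check a deletion of some of its exons, so libraries are called by their labels. Against the label of the samples, the 26 endothelial markers summed to 21810 to 31440 CPM in cre+ and 14560 to 20090 CPM in cre- libraries. The 18 neuron markers summed to 1706 to 3239 CPM in cre+ and 3078 to 5091 CPM in cre- libraries, sums that also depend on the number and length of the genes listed. Of the neuron markers 6 were called lower and 0 higher in cre+ libraries by DESeq2 at an adjusted p of 0.05, while 19 of the endothelial markers were called higher and 0 lower. Over all genes with a DESeq2 adjusted p, 6.7% were called higher and 5.48% lower. With single libraries left out, the neuron markers called lower were 10 when cre+ replicate 3 was dropped, 11 when cre- replicate 4 was dropped, and 0 in each of the other 5 fits. The endothelial markers called higher were 5 when cre+ replicate 1 was dropped, 10 when this was cre- replicate 1, and 6 when it was cre- replicate 2 or 3. The study assessed the purity of its neuron isolates by flow cytometry with stains that included one for endothelial cells. It reported a high percentage of neurons by that measurement, and described the isolates as highly enriched in neurons. That measurement is not analysed here, and a sum of CPM is not a share of cells. The column headers carry codes that are not shared between the genotypes, and a batch they might mark cannot be told apart from the genotype.

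The RefSeq promoter table (GRCm38.p6) held 5 of the 10 genes, and Lama1, Lama3, Lama4, Lamc1 and Nid2 had no entry. Lama2, Lamb2 and Nid1 are shown because they are the 3 of those 5 genes for which every cre+ library lay above every cre- library. Each sequence covers 250 bases before and 50 bases after the RefSeq start and matched GRCm39 exactly at a single place on its chromosome. Capitals mark 5 promoter motifs searched for on both strands: the GC box, the CCAAT box, the TATA box, the core of sites for ETS factors and a STAT6 type site.
Lama2, chr10:27492889-27493188, minus strand: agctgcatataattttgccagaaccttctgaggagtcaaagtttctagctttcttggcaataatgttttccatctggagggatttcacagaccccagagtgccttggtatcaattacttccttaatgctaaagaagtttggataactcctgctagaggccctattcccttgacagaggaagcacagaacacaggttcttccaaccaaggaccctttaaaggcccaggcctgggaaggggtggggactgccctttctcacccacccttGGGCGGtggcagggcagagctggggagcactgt
Lamb2, chr9:108356811-108357110, plus strand: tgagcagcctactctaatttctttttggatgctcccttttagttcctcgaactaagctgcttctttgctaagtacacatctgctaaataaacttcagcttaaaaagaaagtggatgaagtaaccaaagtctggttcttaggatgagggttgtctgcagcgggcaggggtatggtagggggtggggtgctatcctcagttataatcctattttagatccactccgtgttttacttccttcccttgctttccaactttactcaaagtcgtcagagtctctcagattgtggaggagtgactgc
Nid1, chr13:13611937-13612236, plus strand: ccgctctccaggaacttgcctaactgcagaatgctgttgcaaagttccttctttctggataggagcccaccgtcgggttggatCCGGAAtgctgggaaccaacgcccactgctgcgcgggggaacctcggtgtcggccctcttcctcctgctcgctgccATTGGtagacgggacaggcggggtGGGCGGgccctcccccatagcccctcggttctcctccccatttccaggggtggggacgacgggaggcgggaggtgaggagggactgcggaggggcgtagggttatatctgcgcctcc
The 3 promoters had little in common in these letters. The Lama2 window, which lies inside the gene span given in the files, had 1 GC box, the Nid1 window had 1 GC box, 1 CCAAT box and 1 ETS core, and the Lamb2 window had none of the 5. Of the 5 genes in the table, Lama5 and Lamb1 included, 4 had a GC box, spelled GGGCGG, against 35.7% of all 32851 promoters. A CCAAT box was found in 2 of the 5 genes, against 37.4% of all promoters. The ETS core, spelled CCGGAA, was found in 1 of the 5 genes and in 14.9% of all promoters. The TATA box, spelled TATAAA, was found in 0 of the 5 genes and in 13.6% of all promoters. The STAT6 type site, spelled TTCNNNNGAA, was found in 0 of the 5 genes and in 6.95% of all promoters. An E-box (CANNTG, left in lower case) was found in 4 of the 5 genes and in 72.3% of all promoters. No 2 of the capitalised motifs overlapped in the 3 sequences. GC content was 50.3% for Lama2, 44.0% for Lamb2 and 64.7% for Nid1, beside a median of 52.7% over the table.

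All 10 genes passed the filter on low counts and had a positive log2 fold change (cre+ minus cre-) in edgeR, from 0.27 for Lama3 to 1.10 for Lama2. Their median was 0.67, beside -0.04 over the 21542 genes tested, of which 46.0% were positive. In 6 genes (Lama2, Lama4, Lamb2, Lamc1, Nid1 and Nid2) every cre+ library lay above every cre- library, as did 8.94% of all genes tested, in 0 genes every cre+ library lay below, as did 9.72% of all genes tested, and in the other 4 genes the genotypes overlapped. DESeq2, the tool the study used, called the same 6 genes higher and 0 lower at an adjusted p of 0.05, against 6.7% higher and 5.48% lower of the 16345 genes to which it gave an adjusted p. The quasi-likelihood test of edgeR called 0 of the 10, against 0.0% of all genes tested (0 of 21542, lowest adjusted p 0.0939). At an unadjusted p under 0.05 edgeR gave 7 of the 10 and 4305 of all genes (2205 of these higher), and limma-voom called 0 of all genes. Because the genes were picked on this contrast, nothing is read from these counts. In bulk libraries, a higher level in each cell of a type and more cells of that type cannot be told apart.

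**Figure D1:**
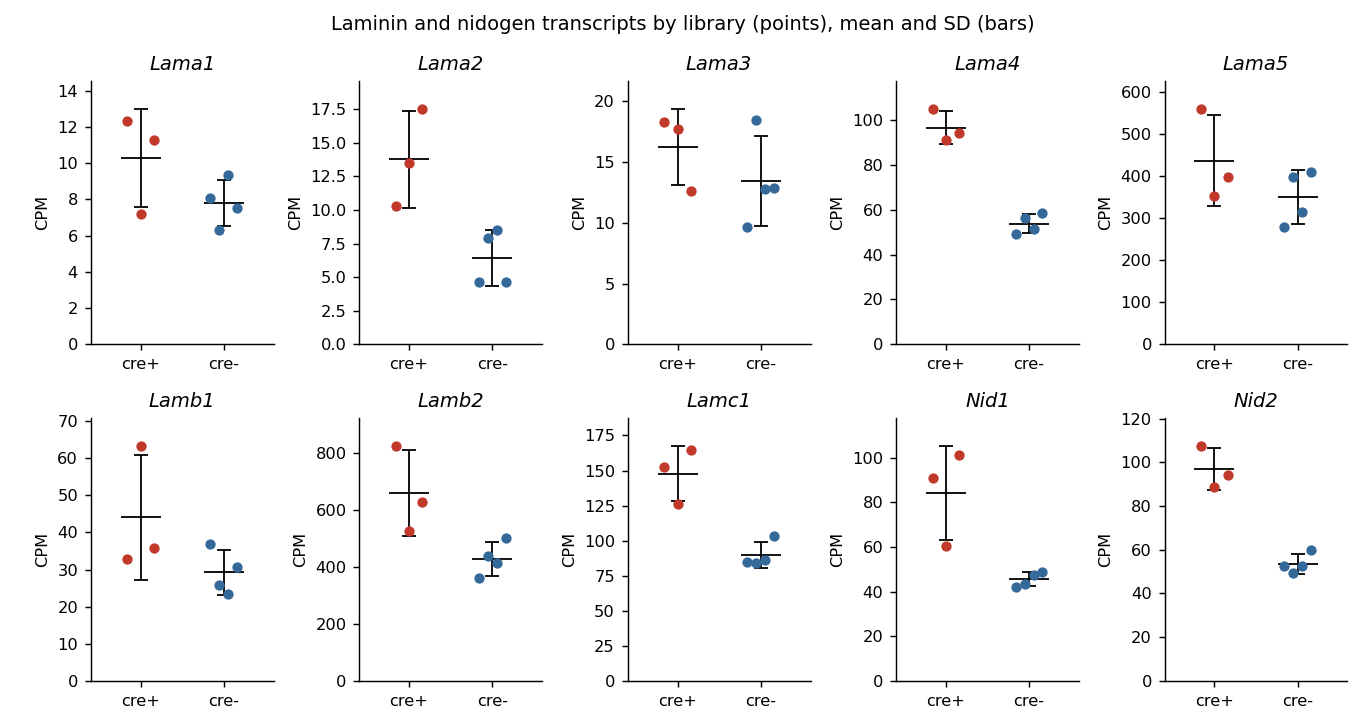
Level of each gene in CPM (vertical axis, linear from 0) in the 3 cre+ and 4 cre- libraries (points), with the mean and SD (bars). The genotypes are separate for Lama2, Lama4, Lamb2, Lamc1, Nid1 and Nid2, and the Lama4 points lie between 91.2 and 105.0 CPM in cre+ against 49.4 to 58.4 CPM in cre-.

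Among the alpha chains, which carry most of the binding sites for cell surface receptors, Lama4 had the smallest error. Lama4 (ENSMUSG00000019846, chromosome 10, 38841511 to 38986184, plus strand, GRCm39) encodes the alpha chain typical of endothelial and mural cell laminins. It stood at 105.0, 91.2 and 94.3 CPM in cre+ libraries, against 49.4, 56.2, 51.3 and 58.4 CPM in cre- libraries. The lowest cre+ library was thus 1.56 times the highest cre- library. On average Lama4 had 96.8 ± 7.28 CPM in cre+ libraries (SD, n = 3), against 53.8 ± 4.20 CPM in cre- libraries (SD, n = 4), and the log2 fold change was 0.85 ± 0.10 (SE).

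Lama2 (ENSMUSG00000019899, chromosome 10, 26856032 to 27495754, minus strand) encodes the alpha chain of muscle and of brain vessels, whose loss causes a congenital muscular dystrophy. It was low, at 10.3, 13.5 and 17.5 CPM in cre+ libraries, against 4.64, 7.88, 8.54 and 4.65 CPM in cre- libraries. Its log2 fold change was the highest of the 10 genes, 1.10 ± 0.29 (SE), but the lowest cre+ library was only 1.20 times the highest cre- library. The DESeq2 call was lost without cre+ replicate 3, where the edgeR log2 fold change was 0.89. In that library the markers of meningeal fibroblasts averaged 5.25 on the log2 CPM scale, beside 3.80 and 4.35 in cre+ replicates 1 and 2 and 3.30 to 3.74 in cre- libraries, and their part in the Lama2 level was not tested.

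Lama5 (ENSMUSG00000015647, chromosome 2, 179818166 to 179867652, minus strand) encodes the other main alpha chain of mature vessels. It stood at 558, 353 and 396 CPM in cre+ libraries, against 278, 398, 314 and 410.1 CPM in cre- libraries. The genotypes overlapped, since cre+ replicates 2 and 3 lay within the cre- range. The log2 fold change of 0.32 ± 0.20 (SE) was 0.09 without cre+ replicate 1.

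The remaining alpha chains were low and overlapped between genotypes. Lama1 (ENSMUSG00000032796, chromosome 17, 68004254 to 68129642, plus strand), an alpha chain of the early embryo and of the pial surface, had 12.3, 7.20 and 11.3 CPM in cre+ libraries, against 8.07, 6.29, 9.34 and 7.53 CPM in cre- libraries. Lama3 (ENSMUSG00000024421), the alpha chain of epithelial hemidesmosomes, had 18.3, 17.7 and 12.6 CPM in cre+ libraries, against 9.65, 18.5, 12.8 and 12.9 CPM in cre- libraries. Their log2 fold changes were 0.40 ± 0.23 and 0.27 ± 0.24 (SE). Lama1 was highest in cre+ replicate 1, whereas Lama3 was highest in cre- replicate 2.

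Of the beta chains, Lamb2 was separate between genotypes and Lamb1 was not. Lamb2 (ENSMUSG00000052911, chromosome 9, 108356935 to 108367729, plus strand), the beta chain known from neuromuscular junctions, kidney glomeruli and vessels, had 824.5, 527 and 628.5 CPM in cre+ libraries, against 360, 438, 412.5 and 502 CPM in cre- libraries. The gap was small, with cre+ replicate 2 at 1.05 times cre- replicate 4. The log2 fold change was 0.62 ± 0.18 (SE), and the DESeq2 call was lost when cre+ replicate 1, cre- replicate 2 or cre- replicate 3 was left out.

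Lamb1 (ENSMUSG00000002900, chromosome 12, 31315233 to 31379643, plus strand), the beta chain expressed most widely during development, had 32.95, 63.3 and 35.9 CPM in cre+ libraries, against 37.0, 26.0, 23.3 and 30.6 CPM in cre- libraries. Cre+ replicate 2 stood apart, and cre- replicate 1 lay above both other cre+ libraries. The log2 fold change of 0.59 ± 0.25 (SE) was 0.24 without cre+ replicate 2. These same libraries were the highest of their genotypes for choroid plexus markers, a link noticed after the values were seen. The mean of those 8 markers was 7.37, 8.56 and 7.28 on the log2 CPM scale in cre+ libraries, against 7.61, 6.85, 6.48 and 7.33 in cre- libraries, and their part in the Lamb1 level was not tested. Among the 10 marker lists, cre+ replicate 2 was also the highest cre+ library for astrocyte, microglia and ependymal markers. Likewise, cre- replicate 1 was also the highest cre- library for neuron, smooth muscle and oligodendrocyte markers.

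Lamc1 (ENSMUSG00000026478, chromosome 1, 153094668 to 153208532, minus strand) encodes the gamma chain shared by most laminins and binds nidogens. It stood at 153, 126 and 165 CPM in cre+ libraries, against 84.8, 83.9, 86.2 and 103 CPM in cre- libraries. The genotypes were separate, with a log2 fold change of 0.72 ± 0.12 (SE). Of the 4 cre- libraries, 3 lay close together and replicate 4 lay above them.

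Both nidogens were separate between genotypes. Nid2 (ENSMUSG00000021806, chromosome 14, 19801333 to 19861855, plus strand) had 107.5, 88.8 and 94.4 CPM in cre+ libraries, against 52.4, 49.2, 52.4 and 60.0 CPM in cre- libraries. On average Nid2 had 96.9 ± 9.60 CPM in cre+ libraries (SD, n = 3), against 53.5 ± 4.58 CPM in cre- libraries (SD, n = 4), and the log2 fold change was 0.86 ± 0.11 (SE). The lowest cre+ library was 1.48 times the highest cre- library. Nid1 (ENSMUSG00000005397, chromosome 13, 13612136 to 13686854, plus strand), the more widely expressed nidogen, had 90.8, 60.4 and 101 CPM in cre+ libraries, against 42.2, 43.5, 47.5 and 48.7 CPM in cre- libraries. Its log2 fold change was 0.89 ± 0.17 (SE), with a coefficient of variation of 25.2% over cre+ and 6.85% over cre- libraries. Counting error was smaller than the spread between mice throughout. The coefficients of variation of the 10 genes ran from 6.85% to 38.0%, while the part expected from counting alone was at most 5.17%, at a lowest count of 374 reads. That part covers counting error only, as reads without molecular identifiers are not independent molecules.

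The ratio of Nid2 to Lama4 is a description, since both genes were picked for their high level in cre+ libraries. On the log2 scale, Nid2 over Lama4 was 0.03, -0.04 and 0.00 in cre+ libraries, against 0.09, -0.19, 0.03 and 0.04 in cre- libraries. The 5 genes whose log2 CPM, centred over the 7 libraries, lay closest to Lama4 among 15987 genes were Mast4, Nid2, B3gnt2, Il13ra1 and Sec24d, with root mean square differences of 0.081 to 0.093. Those closest to Nid2 were Tmem51, Itpripl2, Sema3g, Lama4 and B3gnt2, at 0.071 to 0.083. Of the other members, Lamc1 was the closest to both, at 0.134 from Lama4 and 0.117 from Nid2, and Lama2 was the farthest, at 0.430 and 0.469. All of these genes were measured in the same 7 libraries and share their depth and composition, and the likeness includes the genotype difference on which Lama4 and Nid2 were picked.

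Levels of different genes were compared as CPM per kb of exon length, and Lamb2 was the highest. It averaged 108 CPM per kb in cre+ and 70.3 CPM per kb in cre- libraries, ahead of Lama5 at 38.1 and 30.6 CPM per kb. Next came Nid2 (14.9 in cre+ and 8.24 in cre-), Lamc1 (13.1 and 7.91), Nid1 (11.2 and 6.06), Lama4 (6.16 and 3.43) and Lamb1 (4.11 and 2.73), all in CPM per kb. Lama3, Lama1 and Lama2 were lowest, at 1.26, 1.06 and 0.772 CPM per kb in cre+ and 1.04, 0.804 and 0.360 CPM per kb in cre- libraries. With exon length the order was the same in both genotypes. In cre+ libraries the ranges of Nid2 and Lamc1, of Lamc1 and Nid1, of Lama4 and Lamb1, of Lama3 and Lama1, and of Lama1 and Lama2 overlapped, so these neighbours are not ordered beyond their spread. In cre- libraries the overlapping neighbours were Nid2 and Lamc1, Lama4 and Lamb1, and Lama3 and Lama1. With the longest coding transcript as the length, 11 of the 20 levels moved by more than the spread between replicates, Lama4 to 12.3 CPM per kb in cre+ and 6.84 CPM per kb in cre- libraries. The order then differed between genotypes: Lama2, at 1.42 CPM per kb in cre+ libraries, was above Lama3 (1.33) and Lama1 (1.08), while at 0.664 CPM per kb in cre- libraries it was lowest. Lamc1 was below Nid2 in cre+ (18.6 and 19.8 CPM per kb) and above it in cre- libraries (11.3 and 10.9 CPM per kb).

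**Figure D2:**
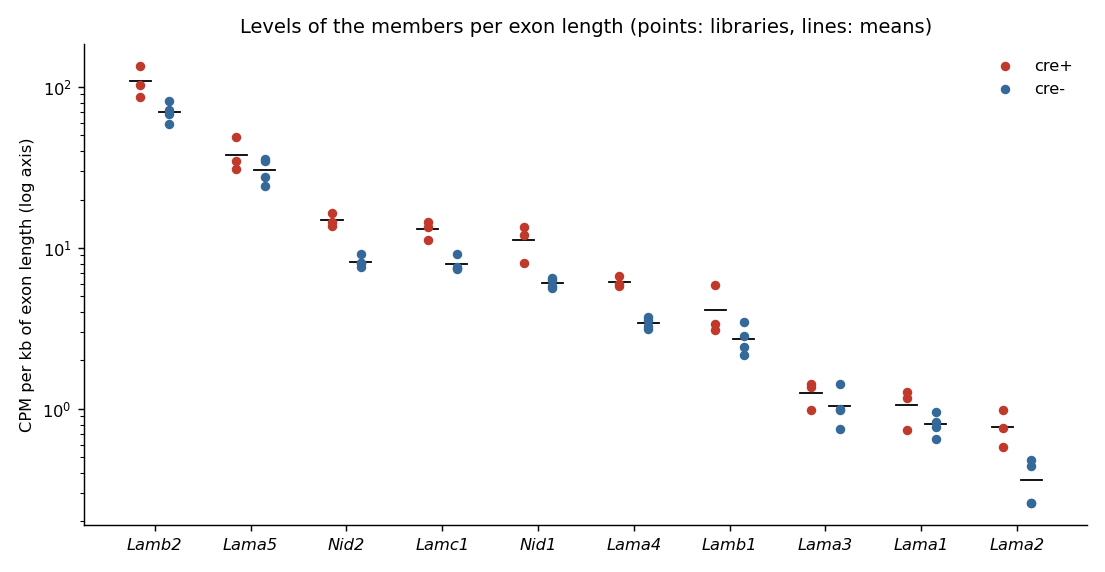
Level of each gene in CPM per kb of exon length (vertical axis, log scale), in cre+ (left, red) and cre- (right, blue) libraries, with lines at the means. On this length Lamb2 and Lama5 were highest in both genotypes and Lama2 lowest, at 0.772 CPM per kb in cre+ and 0.360 CPM per kb in cre-, whereas on coding transcript length Lama1 was lowest in cre+.

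Within the alpha chains, the share of Lama4 was higher in cre+ libraries. That is a description, since Lama4 was picked for its high level in cre+ libraries. Lama4 made up 11.4%, 14.7% and 13.7% of the summed alpha chain CPM per kb in cre+ libraries, against 10.7%, 8.75%, 9.86% and 8.94% in cre- libraries. These ranges did not overlap, though cre+ replicate 1 and cre- replicate 1 lay close together. The share averaged 13.3 ± 1.69% in cre+ libraries (SD, n = 3) and 9.57 ± 0.916% in cre- libraries (SD, n = 4), and with the coding transcript as the length it averaged 23.0% in cre+ and 17.3% in cre- libraries. Lama5 held most of the sum, at 80.1 ± 2.63% in cre+ and 84.3 ± 1.64% in cre- libraries, and its shares overlapped. Lama1, Lama2 and Lama3 each held at most 3.51% in any library and overlapped as well.

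The make-up of the beta chains and of the nidogens was alike in means. Lamb2 made up 96.1 ± 2.19% of the sum of Lamb1 and Lamb2 in cre+ and 96.2 ± 1.14% in cre- libraries, a sum without the beta chain Lamb3. Nid2 made up 57.5 ± 5.52% of the nidogens in cre+ and 57.6 ± 1.47% in cre- libraries, with 37.1% to 48.1% Nid1 in cre+ and 41.1% to 44.0% Nid1 in cre-. Among the less usual chains, Lamc3 averaged 45.7 CPM in cre+ and 28.3 CPM in cre- libraries, and Lamb3 averaged 0.547 CPM in cre+ and 0.851 CPM in cre- libraries. Both overlapped between genotypes, edgeR called neither, and DESeq2 did not call Lamc3 and gave Lamb3 no adjusted p.

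**Figure D3:**
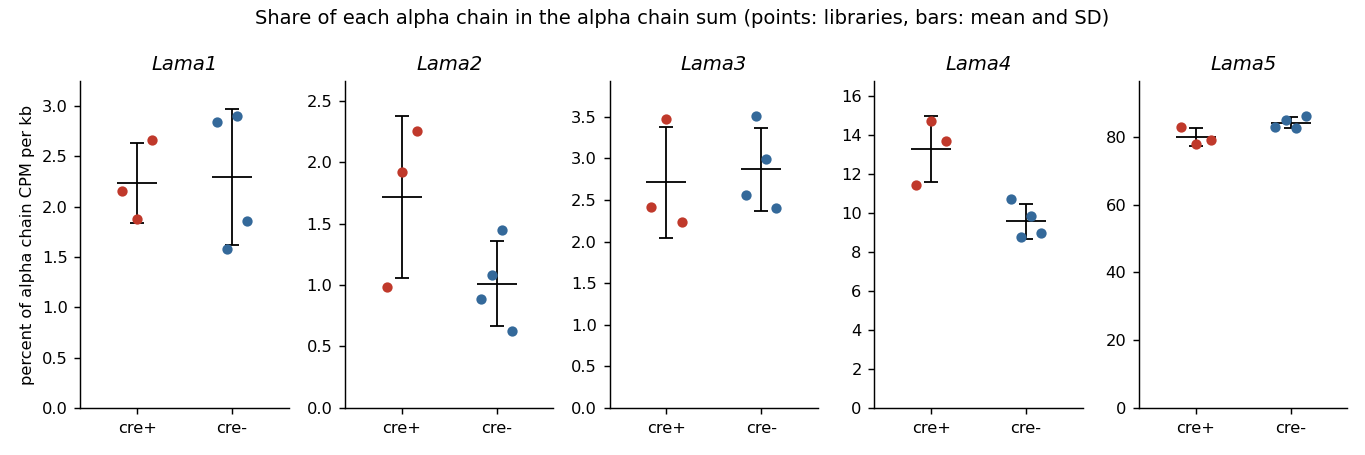
Share of each alpha chain in the sum of the alpha chains (vertical axis, percent of CPM per kb, from 0) in cre+ and cre- libraries (points), with the mean and SD (bars). The Lama4 shares were 11.4% or more in cre+ and 10.7% or less in cre-, while those of Lama1, Lama2, Lama3 and Lama5 overlapped. Lama4 was picked for its high level in cre+ libraries.

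Among 18 other basement membrane genes, DESeq2 called 5 higher and 1 lower, and edgeR called 0 (8 higher and 1 lower at an unadjusted p under 0.05). At that unadjusted threshold 2205 of the 21542 genes tested in edgeR were higher. Over all genes with a DESeq2 adjusted p, 6.7% were called higher and 5.48% lower. Tinagl1, a matrix protein related to a basement membrane antigen of kidney tubules, averaged 315 ± 79.3 CPM in cre+ libraries (SD, n = 3), against 174 ± 25.4 CPM in cre- libraries (SD, n = 4), with a DESeq2 adjusted p of 0.00139 and an edgeR adjusted p of 0.0939. Pxdn, the peroxidase that crosslinks type IV collagen, averaged 72.2 CPM in cre+ and 111 CPM in cre- libraries (DESeq2 adjusted p of 0.00334). The other partners called were Sparc, a collagen-binding matrix protein, with a log2 fold change of 0.67 ± 0.18, the collagen chains Col4a2 with 0.59 ± 0.17 and Col4a1 with 0.62 ± 0.19, and the proteoglycan perlecan, Hspg2, with 0.63 ± 0.20 (SE). Col4a1 and Hspg2 were named after their values were seen.

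The partners did not all differ. Agrn, the proteoglycan agrin, had 1315, 845 and 1108 CPM in cre+ libraries, against 888, 1122, 1002 and 1121 CPM in cre- libraries, and a log2 fold change of 0.08 ± 0.17 (SE). The collagen chains Col4a3, Col4a4, Col4a5 and Col4a6 were not called, with log2 fold changes of -0.07 to 0.48. These 5 genes were named after their values were seen. The median over the 18 partners was 0.43. Without cre- replicate 2 DESeq2 called 1 partner higher, without cre- replicate 3 it called 2, and without cre+ replicate 1 or cre- replicate 1 it called 3. Tinagl1 was called with each library left out in turn. Col4a1 and Col4a2 lost their calls without cre+ replicate 1 and without cre- replicates 1, 2 or 3, Hspg2 also without cre+ replicate 3, Sparc without cre+ replicate 1 or cre- replicate 2, and Pxdn without cre+ replicate 2.

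Among the receptors of laminins, DESeq2 called 8 of 14 higher and 0 lower, edgeR called 0 (8 at an unadjusted p under 0.05), and the median log2 fold change was 0.46. Over all genes with a DESeq2 adjusted p, 6.7% were called higher and 5.48% lower. Itga6, an integrin chain that pairs with Itgb1 or Itgb4 to bind laminin, had 531, 387 and 433 CPM in cre+ libraries, against 231, 237, 270.4 and 325 CPM in cre- libraries, a log2 fold change of 0.76 ± 0.16 (SE). Its partner Itgb1 had 0.52 ± 0.12, while Itgb4, at 13.5 CPM in cre+ and 10.2 CPM in cre- libraries, was not called. Bcam, a receptor for the Lama5 chain, averaged 513 ± 76.3 CPM in cre+ libraries (SD, n = 3), against 315 ± 46.3 CPM in cre- libraries (SD, n = 4). Sdc3, a neural syndecan, had a log2 fold change of 0.53 ± 0.12 (SE). The DESeq2 adjusted p was 0.00118 for Itga6, 0.00172 for Bcam, 0.00417 for Sdc3 and 0.00532 for Itgb1.

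Dag1, the dystroglycan gene, had 173, 175 and 179 CPM in cre+ libraries, against 149, 101, 117 and 137 CPM in cre- libraries. Its log2 fold change of 0.48 ± 0.14 (SE) came with a DESeq2 adjusted p of 0.0291. Itga1, Itga3 and Sdc4 were called as well, and Itga7 and Sdc1 had log2 fold changes of -0.09 and -0.10. Dag1, Itgb4 and these last 5 genes were named after their values were seen. Itga6, Bcam and Sdc3 were called by DESeq2 with each library left out in turn, and Itgb1 with each except cre- replicate 3. The number of receptors called was 3 without cre- replicate 3, 4 without cre+ replicate 2 or cre- replicate 2, and 5 without cre+ replicate 3.

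The dystrophin complex, which anchors dystroglycan inside the cell, had a median log2 fold change of 0.04 over its 13 genes. DESeq2 called 6.7% of all genes with an adjusted p higher and 5.48% lower. Of the 13 it called 2 higher, Utrn (utrophin, 504 CPM in cre+ and 320.2 CPM in cre- libraries) and Sntb2 (a syntrophin, 21.9 and 13.3 CPM). It called 1 lower, Dtnb (a dystrobrevin, 29.9 and 40.9 CPM). Without cre+ replicate 1 DESeq2 called 1 gene of this list higher and 0 lower, and without cre+ replicate 2, cre- replicate 2 or cre- replicate 3 it called 2 higher and 0 lower. None of the 16 genes that build the laminin-binding sugar of dystroglycan was called by DESeq2 or edgeR (1 at an unadjusted p under 0.05 in edgeR), and their median log2 fold change was 0.04. Of 12 genes of matrix turnover, DESeq2 called Timp3, an inhibitor of metalloproteinases, with 508 CPM in cre+ and 235 CPM in cre- libraries, and Plat, tissue plasminogen activator, with a log2 fold change of 0.86 ± 0.22 (SE) and overlap between genotypes. Timp3 was called with each library left out in turn, while Plat lost its call without cre+ replicate 1 or 2 and without cre- replicate 2 or 3.

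**Figure D4:**
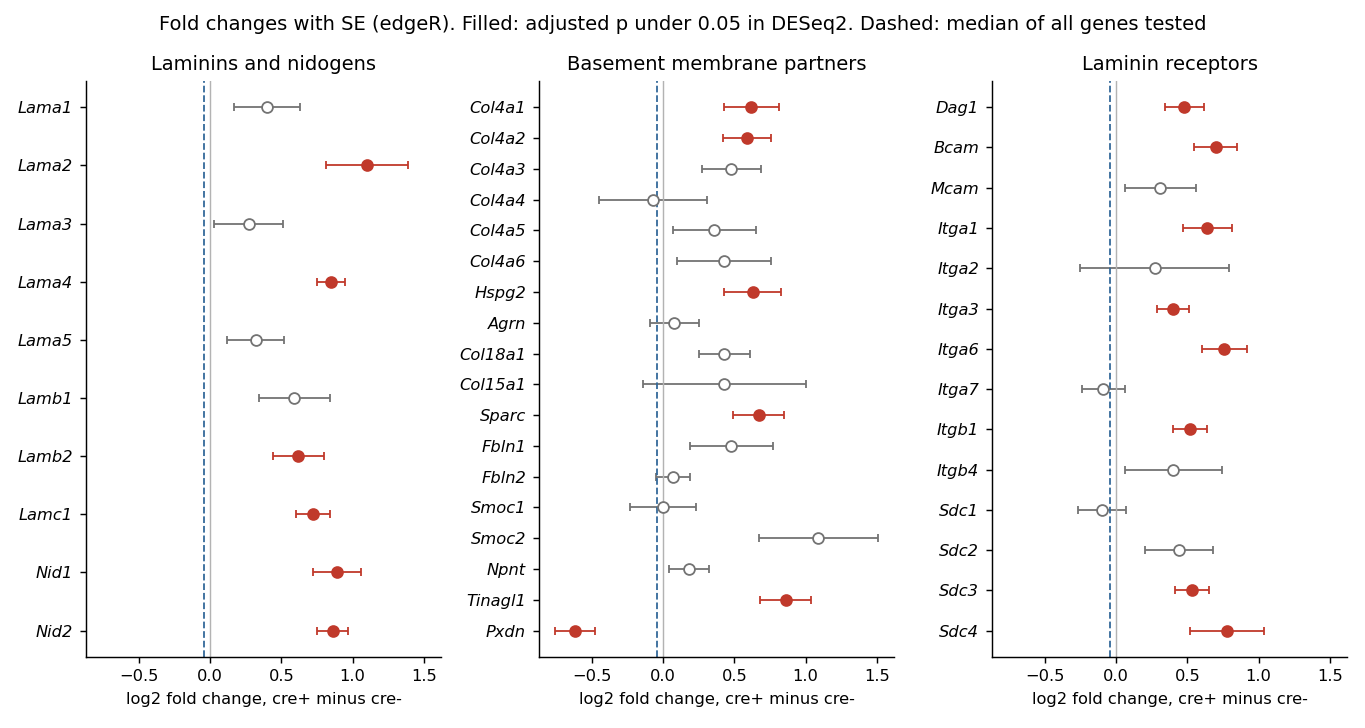
Log2 fold changes, cre+ minus cre-, with SE (horizontal axis) of the 10 laminin and nidogen genes, 18 basement membrane partners and 14 laminin receptors. Filled red points have an adjusted p under 0.05 in DESeq2, edgeR called none, and the dashed line marks the median of all genes tested, -0.04. Pxdn is the one filled point below 0.

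On the median, markers of vessel cells, of fibroblasts and of the other non-neuronal cell types listed differed in the same direction as the laminins. DESeq2 called 10 of 16 pericyte markers and 6 of 15 meningeal fibroblast markers higher, with 0 lower in either list, and 0 of 9 smooth muscle markers. Over all genes with a DESeq2 adjusted p, 6.7% were called higher and 5.48% lower. With single libraries left out, the fibroblast markers called were 2 without cre- replicate 3, 8 without cre+ replicate 1 and 3 in each other fit, the pericyte markers 8 to 11, and the smooth muscle markers 4 without cre- replicate 1 and 0 in each other fit. The median log2 fold changes were 0.64 for endothelial, 0.84 for pericyte, 0.97 for fibroblast and 0.30 for smooth muscle markers. For astrocyte, oligodendrocyte, ependymal, microglia and choroid plexus markers they were 0.82, 0.48, 0.88, 0.36 and 0.77. The pericyte markers summed to 584 to 814 CPM in cre+ and 386 to 441 CPM in cre- libraries, and the fibroblast markers to 664 to 1497 CPM in cre+ and 475 to 577 CPM in cre- libraries. None of the markers listed was at 0 in every library. edgeR called 0 genes in each of these lists, with 20, 11, 10 and 1 higher at an unadjusted p under 0.05 for endothelial, pericyte, fibroblast and smooth muscle markers. At that unadjusted threshold 2205 of the 21542 genes tested in edgeR were higher.

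Set against the endothelial, pericyte or fibroblast markers within each library, Lama4 and Nid2 overlapped between genotypes. The log2 CPM of Lama4 minus the mean log2 CPM of the endothelial markers was -3.06, -2.67 and -2.67 in cre+ libraries, against -3.04, -2.85, -3.00 and -3.25 in cre- libraries, a difference of 0.24. Against the pericyte markers it was 2.52, 2.75 and 2.15 in cre+ libraries, against 2.27, 2.40, 2.49 and 2.78 in cre- libraries, a difference of -0.01. For Nid2 the differences were 0.24 against endothelial and 0.00 against pericyte markers, and the ranges overlapped in both. Over all 10 genes, 9 overlapped against the endothelial markers and 10 against the pericyte and the fibroblast markers. The exception was Lama5, which lay 0.30 lower in cre+ libraries relative to the endothelial markers, at -0.65, -0.71 and -0.60 against -0.54, -0.02, -0.39 and -0.44 in cre- libraries. With the median of the list in place of its mean, Lama5 overlapped too, with a difference of -0.18. Against the smooth muscle markers Lama4 and Nid2 each stayed 0.64 higher in cre+ libraries and overlapped. With the median of that list the difference was 0.69 for each, and Lama4, Lamc1, Nid1 and Nid2 did not overlap. On none of these scales was the share of all genes without overlap computed. Nothing particular to the 10 genes is thus read from these counts.

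Set against the neuron markers, the gap was wider than in CPM. The mean log2 CPM of these markers was 5.97, 6.83 and 7.07 in cre+ libraries, against 7.74, 7.34, 7.37 and 6.95 in cre- libraries. Subtracting this mean, lower on average in cre+ libraries, shifts every gene upward in cre+ against cre-. The wider gap is thus not particular to the 10 genes. For Lama4 the value was 0.75, -0.32 and -0.51 in cre+ libraries, against -2.11, -1.52, -1.68 and -1.08 in cre- libraries, a difference of 1.57. Without overlap were 8 of the 10 genes, Lama3 and Lama5 being the exceptions, with differences over all 10 from 1.01 to 1.85. The share of all genes without overlap on this scale was not computed. With the mean of endothelial and pericyte markers as a covariate in edgeR, the log2 fold change was 0.52 ± 0.22 for Lama4 and 0.44 ± 0.21 for Nid2. It was higher than without the covariate for Lama2, at 1.93 ± 0.71, and for Lamb1, at 1.48 ± 0.45, and below 0 for Lama1, Lama5 and Lamb2. DESeq2 called 0 of the 10 genes in that fit, and the share of all genes called in it is not given here. That covariate itself did not overlap between genotypes, at 7.65, 7.11 and 7.39 in cre+ libraries and 6.64, 6.66, 6.59 and 6.83 in cre- libraries on the log2 CPM scale, so its part and that of the genotype cannot be told apart.

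**Figure D5:**
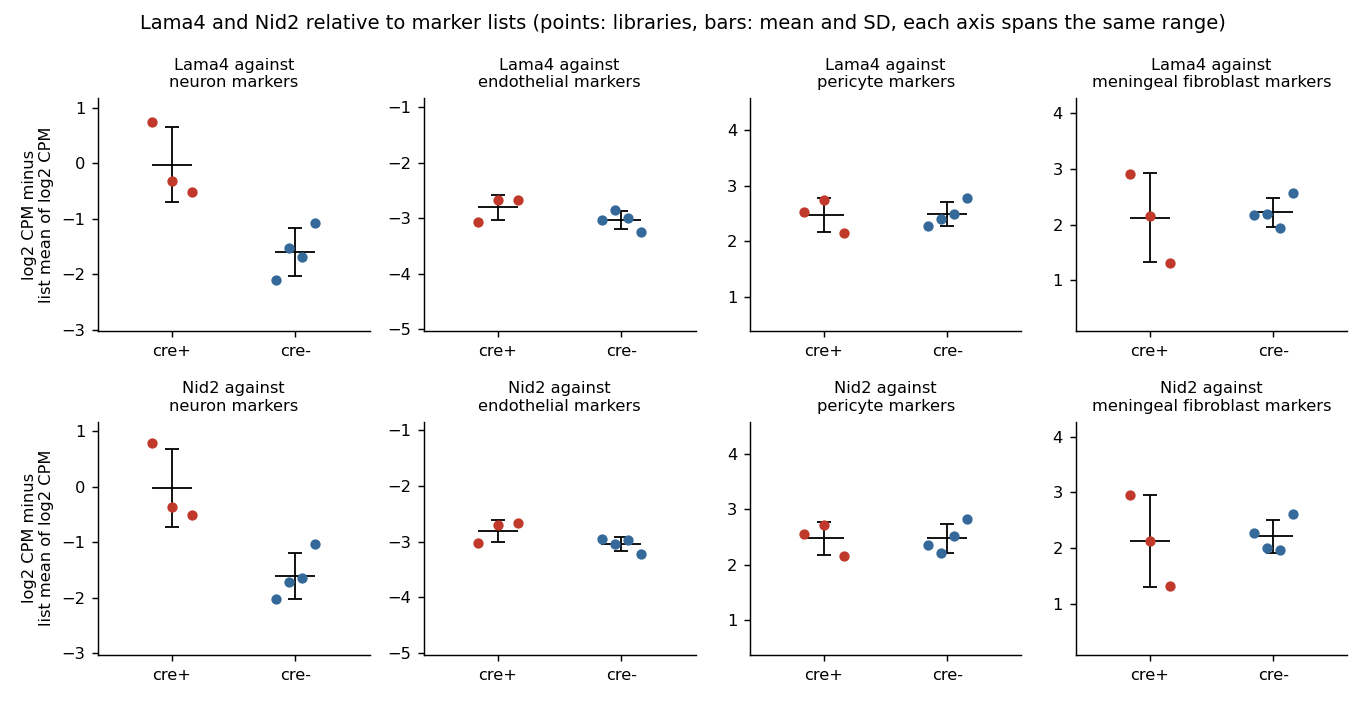
Log2 CPM of Lama4 (top) and Nid2 (bottom) minus the mean log2 CPM of a marker list in the same library (vertical axis), for cre+ and cre- libraries (points) with the mean and SD (bars). Cre+ and cre- points are apart for neuron markers, by 1.57 for Lama4, and overlap for endothelial, pericyte and meningeal fibroblast markers. The neuron marker mean was itself lower on average in cre+ libraries.

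Within the cre+ libraries, the 10 genes did not share 1 order. Lama1, Lama3, Lama4, Lama5, Lamb2 and Nid2 were highest in replicate 1, the library with the highest endothelial markers (9.77, 9.18 and 9.23 as the mean log2 CPM in replicates 1 to 3). Lama2, Lamc1 and Nid1 were highest in replicate 3, the library with the highest pericyte markers (4.20, 3.76 and 4.41) and fibroblast markers. Replicate 3 was also the highest cre+ library for smooth muscle (4.38), oligodendrocyte (6.16) and neuron markers (7.07). Lamb1 alone was highest in replicate 2. With 3 libraries, the part of these markers in the order was not tested.

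Some exons of these genes lie over genes of the opposite strand, and whether counting used the strand is not stated in the sources at hand. Lama4 shares 806 exon bases with Fam229b, which had 167 to 259 counts in cre+ and 176 to 265 in cre- libraries. Nid2 shares 767 exon bases with Rtraf, which had 4196 to 5702 counts in cre+ and 3838 to 5093 in cre- libraries. Neither partner gene had separate counts between genotypes. Reads of the shared bases could have been given to either gene, and their part in the Lama4 and Nid2 levels was not tested.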

How the data were processed

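According to the submitters' notes and methods, reads were trimmed (fastp), checked (FastQC), aligned to GRCm39 (STAR), filtered (SAMtools) and counted per gene (StringTie), and the authors tested them in DESeq2. Versions, annotation release and the use of strand: not given in the sources used here. For each library the deposited raw files hold whole-number counts per gene (7 libraries). Of 46382 rows per file, 49 repeated symbols were dropped. The deposited normalized files were not used.

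Groups came from the labels; replicates are littermates per the methods. Counts of all genes were tested with edgeR 4.0.16 in R 4.3.3 (quasi-likelihood test, TMM factors, filterByExpr, robust estimation, genotype as the only term), adjusted by Benjamini-Hochberg over 21542 genes, with 0.05 as the threshold. DESeq2 1.42.0 and limma-voom (limma 3.58.1) were alternatives. The counts of calls given for lists are those of DESeq2 because edgeR called no gene, which was decided with the data in view. CPM used TMM factors, and log2 CPM a prior count of 2. Exon length was the union of exons in GENCODE M39, in which 99.4% of identifiers were found. The fits were checked on simulated counts.

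The 10 genes and the 6 pathway and 10 marker lists were chosen with earlier results of these data known. Other genes were named by a fixed rule: of each pathway list, the 4 genes with the smallest edgeR p, and the 5 genes closest in pattern to Lama4 and to Nid2. Genes outside the rule are marked. Of 16 fibroblast markers, Dpt did not pass the filter. Protein sequences were not analysed here. Alternatives were other scalings, filters and tests, a replicate block, a covariate of vessel markers and leaving out each library.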

Additional observations from a re-analysis of the deposited data

Results flagged for a closer look

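Values of the 4 cre- libraries were checked for a library far from the others, by its gap to the nearest divided by the range, against the 95% critical value of Dixon's test. Chance alone marks about 1 in 20 groups. Of the 10 genes, Lamc1 was marked in CPM, with a ratio of 0.879, as cre- replicate 4 stood at 103 CPM and the other cre- libraries at 83.9 to 86.2 CPM. Of 9 chain shares, those of Lamb1 and Lamb2 in their joint sum, which add up to the whole and so mark the same library, had a ratio of 0.902. In cre- replicate 1 Lamb1 made up 5.51% of the sum of Lamb1 and Lamb2, beside 3.11% to 3.35% in the other cre- libraries.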

How the results depend on the processing

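The number of laminin and nidogen genes called was 0 in edgeR and 6 in DESeq2. For the 76 genes tested in the pathway lists it was 0 in edgeR and 19 in DESeq2, and for all genes 0 in edgeR and 1990 in DESeq2. Leaving out each library in turn, edgeR called 0 to 5 of all genes, 5 without cre+ replicate 1. The DESeq2 fits that follow were added after seeing the data. The share of all genes called is not given for these fits, nor for the list counts with single libraries left out. With each library left out, DESeq2 called 5 or 6 of the 10 genes and 9 to 20 pathway genes, with 12 when cre+ replicate 2, 9 when cre- replicate 2 and 10 when cre- replicate 3 was left out. With the endothelial and pericyte covariate it called 0 of the 10 genes and 2 pathway genes. Of 160 refitted log2 fold changes of the 10 genes over 16 settings, 3 were below 0, all with that covariate: Lamb2 (-0.28), Lama5 (-0.63) and Lama1 (-0.36), while Lama2 (1.93) and Lamb1 (1.48) were higher with it. Outside the covariate, Lama4 ran from 0.73 to 0.89 and Nid2 from 0.74 to 0.92. Scaling by library totals moved the median of all genes by -0.12 and left all 10 fold changes positive. Same-numbered libraries did not deviate together (correlations -0.027, -0.004 and 0.088), so the numbers were not taken as pairs. With a replicate block, edgeR called 0 of the 10 genes and DESeq2 6, with 17 pathway genes, and the log2 fold change was 0.89 for Lama4 and 0.91 for Nid2. Depth did not limit the 10 genes, each with 374 or more counts per library, but 3 and 4 mice per genotype limit the precision.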

Other observations

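Markers of further cell types are given as values, beside 6.7% of all genes called higher and 5.48% called lower by DESeq2. DESeq2 called 5 of 16 astrocyte markers higher in cre+ libraries, 2 of 10 oligodendrocyte markers, 1 of 8 ependymal markers, 0 of 10 microglia markers and 0 of 8 choroid plexus markers, with 0 lower in each list. Leaving out 1 library changed these counts: without cre- replicate 3 they were 10 for astrocyte, 1 for oligodendrocyte, 4 for ependymal and 6 for microglia markers. Without cre+ replicate 3 they were 3 for astrocyte, 1 for oligodendrocyte, 3 for ependymal and 3 for choroid plexus markers. Over all 7 such fits they ran from 3 to 10 for astrocyte, 1 to 3 for oligodendrocyte, 0 to 4 for ependymal, 0 to 6 for microglia and 0 to 3 for choroid plexus markers. With all libraries, edgeR called 0 in each. At an unadjusted p under 0.05 it gave 2205 of the 21542 genes tested higher, and 7, 2, 3, 0 and 3 in these lists. Their median log2 fold changes were 0.82, 0.48, 0.88, 0.36 and 0.77. Against the mean of the astrocyte markers, the 10 laminin and nidogen genes all overlapped between genotypes, with differences of -0.64 to 0.19 on the log2 scale, also with the list median. Against the mean of the smooth muscle markers they overlapped too, with differences of 0.08 to 0.91, but with the list median Lama4, Lamc1, Nid1 and Nid2 did not. Here too, the share of all genes without overlap was not computed.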
